A study of Mus musculus with 96 samples.

Results

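Mice carry a set of host genes that block retroviruses at successive steps of their life cycle, and many of these genes are switched on by interferon. The levels of 9 of them, Fv1, Trim12a, Trim30a, Apobec3, Samhd1, Bst2, Ifitm3, Irf7 and Ifit1, are described here in the brains of C57BL/6J and NOD/ShiLtJ mice. Each gene was taken as the transcript cluster (the set of probes summarized as 1 value) that carries its symbol alone, and the 9 clusters stand among 28310 clusters, of which 18818 represent a gene with a cluster of its own. The genes were chosen by their role together with their measured strain difference in each brain region, so strain differences of the 9 are given as values with no test.

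The RNA came from 16 male mice of 14 weeks, 8 being C57BL/6J and 8 NOD/ShiLtJ, whose females and, less often, males become diabetic through autoimmunity. Clozapine, an antipsychotic drug, was given to 4 mice per strain at 4 mg/kg into the peritoneum and saline vehicle to the other 4, and all were killed 3 hours later. Forebrain and hindbrain were dissected from one hemisphere, the other hemisphere was kept intact as whole brain, and the cerebellum was removed from both. The mice were inbred animals from a university breeding colony kept apart for years from the supplier's stock, with no transgene, and a whole piece of tissue mixes neurons, glia, vessels and meninges. Each of the 48 RNA samples was hybridized once to an Affymetrix Mouse Gene 1.1ST array, used for the values below unless the 1.0ST array is named, and once to a 1.0ST array, a second measurement of the same RNA and no further animals.

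Restriction factors act on a retrovirus in turn. Fv1, itself derived from an endogenous retrovirus, and proteins of the TRIM family bind the incoming capsid, APOBEC3 enzymes deaminate or obstruct the newly made DNA, and SAMHD1 lowers the pool of nucleotides from which that DNA is built. IFITM proteins hinder fusion of the viral and cellular membranes, and BST2, also called tetherin, holds finished particles on the cell surface. Interferon raises many of these genes through the factor complex ISGF3, which binds a DNA element named the interferon-stimulated response element, and through interferon regulatory factors such as IRF7. Because mouse genomes hold many endogenous retroviruses, inbred strains are known to differ in several of these genes.

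The core letters of that element, a pair of GAAA separated by any 2 bases, were looked for on both strands of RefSeq windows of 300 bases around annotated starts (GRCm38.p6), since they are the sequence feature these genes could share apart from their strain difference. All 9 genes had a window, and 6 of them held the letters, against 3.99% of 27025 genes with a window (3.44% of 32851 windows). The stretches of 30 bases that hold the matches lay at chr7:104315466-104315495 (minus strand) for Trim12a, at chr7:104446104-104446133 and chr7:104465210-104465239 (minus strand) for the 2 starts of Trim30a, and at chr15:79892258-79892287 (plus strand) for Apobec3. Those of Bst2 lay at chr8:71537580-71537609, those of Ifitm3 at chr7:141010723-141010752 and chr7:141010706-141010735 (all minus strand), and those of Ifit1 at chr19:34640775-34640804 and chr19:34640794-34640823 (plus strand). Each is printed from 5′ to 3′ on the strand of its gene, with the matched letters or their reverse complement in capitals.
Trim12a: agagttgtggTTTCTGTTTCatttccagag
Trim30a, first start: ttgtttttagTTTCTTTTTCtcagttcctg
Trim30a, second start: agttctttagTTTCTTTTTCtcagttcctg
Apobec3: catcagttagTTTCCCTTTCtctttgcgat
Bst2: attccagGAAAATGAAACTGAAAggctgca
Ifitm3, first match: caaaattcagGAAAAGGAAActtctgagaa
Ifitm3, second match: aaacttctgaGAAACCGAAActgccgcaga
Ifit1, first match: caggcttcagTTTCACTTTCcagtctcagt
Ifit1, second match: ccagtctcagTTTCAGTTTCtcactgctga

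In Bst2 a pair of matches overlapped in a run of capitals, and in Ifitm3 and Ifit1 a pair lay side by side. The matched letters lay after the annotated start in Trim12a, at the first start of Trim30a and in Ifitm3. Elsewhere they lay before it. The windows of Fv1, Samhd1 and Irf7 did not hold these letters, which says only that this spelling is missing from these windows. Of 47 other interferon-stimulated genes with a window, 48.9% held the letters. A second spelling, TTC and GAA separated by any 3 bases, is that of the gamma-interferon activation site. It was found in the windows of Samhd1, Bst2 and Ifitm3, and in 9.55% of all genes with a window (8.3% of windows).

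The median intensity of an array was 6.28 to 6.61 (log2) in the 1.1ST format and 8.14 to 8.23 in the 1.0ST format. The files hold robust multiarray average (RMA) intensities on a log2 scale with no detection call, so a dim gene cannot be called absent. Genes are not ranked against each other by level, and the share of clusters with a lower signal is given only as a mark of how dim a signal was. Fitted differences came from limma with 5 surrogate variables, which take up unmodelled variation and also part of the difference between regions, so the plain difference of mouse means is given beside a fitted region difference. A cluster was called at a false discovery rate (FDR) below 0.05 over all 28310 clusters.

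Fv1, the capsid-binding gene named for its effect on susceptibility to Friend virus, was higher in every NOD/ShiLtJ sample than in any C57BL/6J sample of the same region. In forebrain the C57BL/6J mice ranged from 7.36 to 7.79 (median 7.62) on the log2 scale and the NOD/ShiLtJ mice from 8.61 to 9.14 (median 8.93). In hindbrain they ranged from 7.39 to 7.84 (median 7.61) and from 8.94 to 9.29 (median 9.09), and in whole brain from 7.50 to 7.85 (median 7.66) and from 8.87 to 9.27 (median 8.96). The strains were thus separated by 0.82, 1.1 and 1.01 log2 units between their closest samples. The fitted difference was 1.35 (SE 0.07), 1.44 (SE 0.07) and 1.32 (SE 0.07) in forebrain, hindbrain and whole brain, or 2.56-, 2.71- and 2.50-fold (n = 8 mice per strain). On the order of group means the 3 NOD/ShiLtJ groups came first and the 3 C57BL/6J groups last, and within a strain neighbouring groups differed by less than 1 SD of the mice (0.11 to 0.19). In pieces of tissue such as these, fewer cells of a type and less RNA per cell cannot be told apart.

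The 1.0ST arrays gave the same separation of Fv1 with a smaller size. The strains did not overlap in any region, and the differences were 1.02 (SE 0.05), 0.90 (SE 0.05) and 1.00 (SE 0.05). By the size of its forebrain strain difference Fv1 stood at place 24 of the 18818 genes, and Trim12a at place 15.

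Trim12a, a mouse relative of the primate capsid sensor TRIM5, ran the other way and had the largest strain difference of the 9. C57BL/6J forebrain lay between 5.16 and 5.92 (median 5.39) and NOD/ShiLtJ forebrain between 3.58 and 3.91 (median 3.71). Hindbrain values were 5.66 to 6.26 (median 5.97) against 3.56 to 3.83 (median 3.67), and whole brain values 5.49 to 5.89 (median 5.66) against 3.30 to 3.90 (median 3.59). No NOD/ShiLtJ sample came within 1.25 log2 units of a C57BL/6J sample of its region. Fitted differences were -1.78 (SE 0.09), -2.28 (SE 0.09) and -2.10 (SE 0.08) in forebrain, hindbrain and whole brain. No fold is given, because the NOD/ShiLtJ signal is not shown to lie above background.

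The NOD/ShiLtJ signal of Trim12a was at the dim end of the array, with only 9.47%, 9.78% and 8.05% of all clusters dimmer in the 3 regions, whereas 37.7% to 43.6% were dimmer than its C57BL/6J signal. In C57BL/6J its order was hindbrain (5.97, SD 0.21), whole brain (5.70, SD 0.14) and forebrain (5.45, SD 0.25), and in NOD/ShiLtJ the region means of 3.61 to 3.72 differed by less than their SD of up to 0.19. The strain difference in hindbrain minus that in forebrain was -0.50 (SE 0.12), and -0.63 (SE 0.15) on the 1.0ST arrays. Another cluster shared by Trim12a and its neighbour Trim12c, which the symbol rule leaves out, was also lower in NOD/ShiLtJ, with -0.711 in forebrain and -0.962 in hindbrain on the log2 scale.

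Trim30a, an interferon-induced TRIM gene of the same cluster on chromosome 7 that is best known for damping Toll-like receptor signalling, differed far less between strains. Its forebrain range was 5.92 to 6.36 (median 6.12) in C57BL/6J and 5.55 to 6.03 (median 5.87) in NOD/ShiLtJ. The hindbrain ranges were 6.26 to 6.77 (median 6.63) and 5.68 to 6.54 (median 6.17), and those of whole brain 5.84 to 6.27 (median 6.21) and 5.38 to 6.14 (median 6.01). Strains overlapped in each region. The fitted differences of -0.28 (SE 0.07), -0.29 (SE 0.08) and -0.25 (SE 0.07) were all below 0 and close to each other, and leaving out each mouse in turn moved their mean between -0.34 and -0.24. On the 1.0ST arrays the strains overlapped in forebrain and whole brain but not in hindbrain.

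Apobec3, the single mouse APOBEC3 deaminase, was lower in NOD/ShiLtJ. C57BL/6J forebrain spanned 5.03 to 5.51 (median 5.29) and NOD/ShiLtJ forebrain 4.80 to 5.05 (median 4.89). Values were 5.14 to 5.74 (median 5.39) against 4.77 to 4.97 (median 4.84) in hindbrain and 5.13 to 5.56 (median 5.38) against 4.68 to 5.12 (median 4.91) in whole brain. The strains did not overlap in hindbrain, touched in whole brain and overlapped by 1 NOD/ShiLtJ sample in forebrain. Fitted differences were -0.38 (SE 0.07), -0.58 (SE 0.08) and -0.44 (SE 0.07), which are 1.301-, 1.49- and 1.35-fold lower. On the 1.0ST arrays the strains did not overlap in forebrain but did in hindbrain and whole brain.

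A second Apobec3 cluster is named on the 1.0ST table only. Its strain difference averaged over regions was -0.13 on the 1.0ST arrays, against -0.38 for the first cluster there, and in 1.1ST forebrain both clusters were at -0.38. The size of the Apobec3 difference depended on the cluster and array, and its direction was the same in both clusters and formats.

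Samhd1, which hydrolyses deoxynucleotides, was slightly lower in NOD/ShiLtJ. Forebrain ranged from 7.85 to 8.10 (median 8.02) in C57BL/6J and from 7.72 to 8.03 (median 7.92) in NOD/ShiLtJ, hindbrain from 8.10 to 8.54 (median 8.37) and from 8.10 to 8.35 (median 8.27), and whole brain from 8.08 to 8.30 (median 8.14) and from 7.90 to 8.18 (median 7.99). The strains overlapped in all regions, and the fitted differences were -0.06 (SE 0.04), -0.07 (SE 0.04) and -0.13 (SE 0.04). The NOD/ShiLtJ samples below all C57BL/6J samples numbered 2 in forebrain, 0 in hindbrain and 7 in whole brain. What ordered the Samhd1 values was region, with hindbrain above whole brain and whole brain above forebrain in both strains.

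Bst2, the tether of budding virus particles, gave the flattest pattern. Its 6 group means lay between 5.95 and 6.05 on the log2 scale, and neighbours in their order differed by less than 1 SD of the mice (0.08 to 0.15). Single samples ranged from 5.71 in a NOD/ShiLtJ forebrain to 6.28 in a NOD/ShiLtJ whole brain. Fitted strain differences were -0.02 (SE 0.05), -0.06 (SE 0.06) and 0.06 (SE 0.05). Over the 48 samples the Bst2 values of the array formats correlated at only 0.06 (Pearson r), as against 0.94 for Ifitm3.

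Ifitm3, which blocks entry of enveloped viruses from endosomes, resembled Samhd1 in being set by region. C57BL/6J forebrain ranged from 7.89 to 8.46 (median 8.10), hindbrain from 8.36 to 9.28 (median 8.89) and whole brain from 8.03 to 8.48 (median 8.11). NOD/ShiLtJ mice ranged from 7.58 to 8.19 (median 7.95), 8.32 to 9.05 (median 8.61) and 8.02 to 8.55 (median 8.16) in the same regions. Strains overlapped everywhere, with fitted differences of -0.20 (SE 0.09), -0.17 (SE 0.10) and 0.03 (SE 0.09).

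Irf7, the regulator that amplifies type I interferon production, was dim in both strains, with 30.4% to 34.5% of clusters dimmer. It ranged from 4.84 to 5.46 over the C57BL/6J samples and from 4.73 to 5.15 over the NOD/ShiLtJ samples, and its fitted strain differences were -0.13 (SE 0.08), -0.16 (SE 0.08) and -0.20 (SE 0.08). The strains overlapped in each region. Between formats its values correlated at 0.16 over 48 samples, and the mean strain difference was -0.16 in the 1.1ST and -0.08 in the 1.0ST format.

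Ifit1, a sensor of foreign RNA caps and among the genes most strongly raised by interferon, varied most from mouse to mouse. C57BL/6J forebrain ranged from 5.57 to 6.70 (median 5.84), hindbrain from 6.12 to 6.996 (median 6.5998) and whole brain from 5.87 to 6.58 (median 6.19). The NOD/ShiLtJ ranges were 5.42 to 6.01 (median 5.63), 5.61 to 7.02 (median 6.24) and 5.31 to 6.14 (median 5.74). Strains overlapped in all 3 regions. Fitted differences were -0.33 (SE 0.14), -0.26 (SE 0.15) and -0.50 (SE 0.14).

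**Figure D1:**
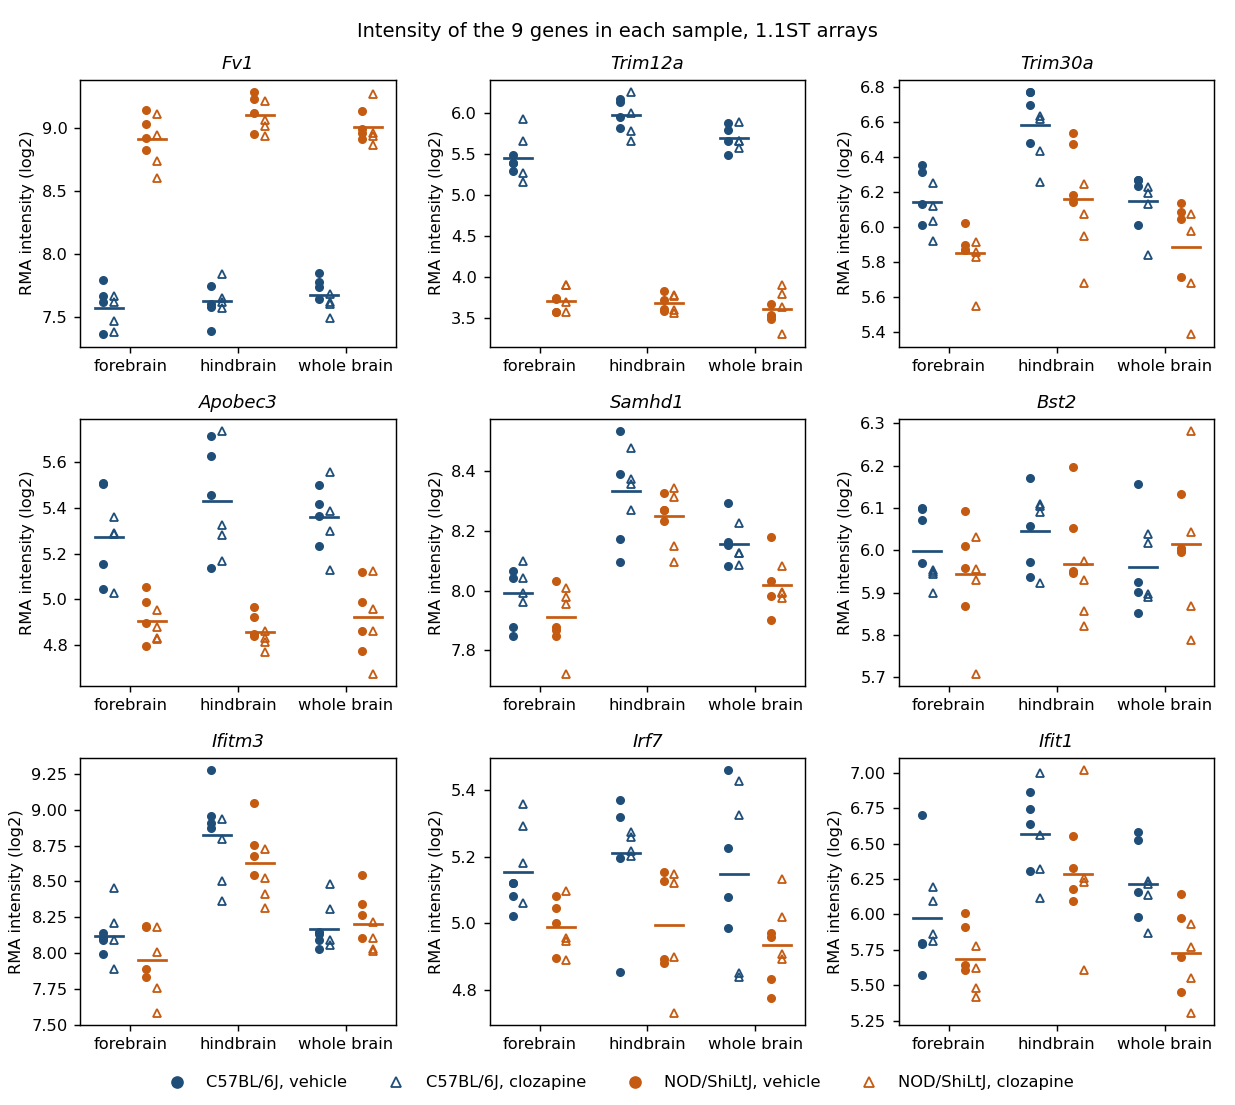
RMA intensity (log2) of the 9 genes in each of 48 samples on the 1.1ST arrays, by region on the horizontal axis, with filled circles for vehicle, open triangles for clozapine, colours for strain and lines at the mean of 8 mice. Fv1 and Trim12a separate the strains without overlap in each region, with a gap of at least 0.82 log2 units, while Samhd1, Ifitm3 and Ifit1 are mainly higher in hindbrain.

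Averaged over the 3 regions, the strain difference was 1.37 for Fv1 (SE 0.04), -2.05 for Trim12a (SE 0.05), -0.46 for Apobec3 (SE 0.04), -0.36 for Ifit1 (SE 0.09), -0.27 for Trim30a (SE 0.04), -0.16 for Irf7 (SE 0.05), -0.11 for Ifitm3 (SE 0.06), -0.09 for Samhd1 (SE 0.02) and -0.004352 for Bst2 (SE 0.03). Fv1 was alone among the 9 in being higher in NOD/ShiLtJ on that average. The strains did not overlap in any region for 2 of the 9 genes, Fv1 and Trim12a, where 1.73% of all clusters separated so, and this background is given without a reading because the strain difference chose the genes. Separation within single regions was found in 3.49% (forebrain), 3.88% (hindbrain) and 3.29% (whole brain) of all clusters, and 17.7%, 20.4% and 18% passed the strain test there. The 1.0ST arrays gave the same sign of the average for each of the 9 genes.

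**Figure D2:**
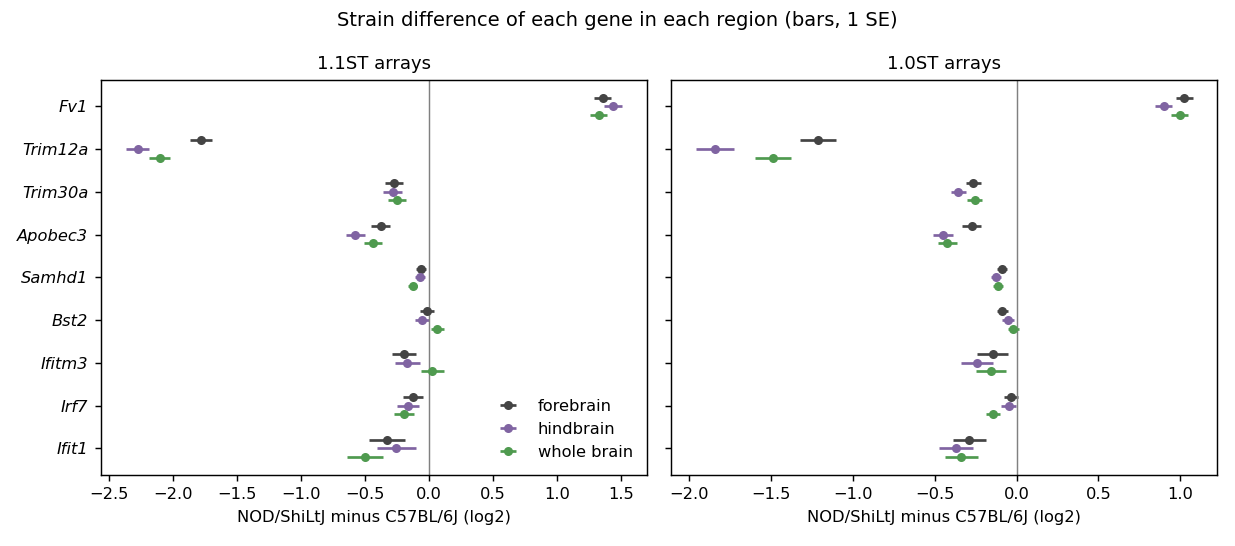
Fitted log2 difference NOD/ShiLtJ minus C57BL/6J of each gene by region, with bars of 1 SE, on the 1.1ST arrays (left) and the 1.0ST arrays (right, own scale). Fv1 lies to the right of 0 and Trim12a furthest to the left in both formats, with the mean of regions at 1.37 and -2.05 on the 1.1ST arrays and at 0.97 and -1.51 on the 1.0ST arrays.

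The choice of genes rested on the strain difference and not on the difference between regions, although it drew on the same samples. Of the 9 genes, 4 passed the test as higher in hindbrain than in forebrain and none as lower (1.1ST, limma), where 27.5% of all clusters passed as higher and 19.7% as lower. Those 4 were Samhd1, Trim30a, Ifitm3 and Ifit1. The median over all 9 genes was 0.16 on the log2 scale, against 0.02 over all clusters.

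Samhd1 was higher in the hindbrain of all 16 mice, with a mean difference of 0.34 (SD 0.10) and a fitted difference of 0.27 (SE 0.04, FDR 1.69e-08 by limma). Within strains the fitted value was 0.28 in C57BL/6J and 0.27 in NOD/ShiLtJ. Ifitm3 also rose in 16 of 16 mice, by 0.69 (SD 0.30) between means and by 0.49 (SE 0.09, FDR 6.86e-06 by limma) in the fit, and its difference was again alike in size in the strains (0.48 and 0.51). The strain by region difference was -0.01 (SE 0.05) for Samhd1 and 0.03 (SE 0.13) for Ifitm3.

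Trim30a was higher in the hindbrain of 15 of 16 mice, by 0.38 (SD 0.20) between means and by 0.37 (SE 0.07, FDR 2.05e-05 by limma) in the fit. Ifit1 was higher in 14 of 16, by 0.60 (SD 0.46) between means and 0.42 (SE 0.14, FDR 0.00698 by limma) in the fit. The Ifit1 call was lost without mouse DD676, a clozapine-treated NOD/ShiLtJ male. Its hindbrain (7.02) was the highest of all 48 samples and its forebrain (5.42) the lowest forebrain. Without it, and with the surrogate variables rebuilt, the fitted Ifit1 difference was 0.15 with an FDR of 0.317 by limma. Calls over all clusters fell too, to 7811 in either direction from 7778 higher and 5576 lower. The part of this mouse's Ifit1 values in the lost call was not tested.

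Trim12a passed the hindbrain test within C57BL/6J, where the difference was 0.41 (SE 0.10, FDR 0.000718 by limma) and 8 of 8 mice were higher, but not over both strains together (0.16, SE 0.09, FDR 0.0561 by limma). In NOD/ShiLtJ it was -0.08 (SE 0.11, FDR 0.292 by limma), with 5 of 8 mice higher. Between means the difference was 0.52 (SD 0.23) in C57BL/6J, -0.03 (SD 0.205) in NOD/ShiLtJ and 0.24 (SD 0.355) over both. The fit of the 1.0ST arrays differed from this. It gave 0.07 in C57BL/6J (SE 0.205, FDR 0.565 by limma), where 6 of 8 mice were higher. NOD/ShiLtJ was called lower there (-0.56, SE 0.21, FDR 0.0388 by limma), with 7 of 8 mice lower. Between means the 1.0ST differences were 0.37 (SD 0.34) and -0.25 (SD 0.25). On those arrays 8.59% of all clusters passed as higher and 7.68% as lower in C57BL/6J, and 9.85% and 9.45% in NOD/ShiLtJ. Within C57BL/6J 22% of all clusters passed as higher and 17.9% as lower, and within NOD/ShiLtJ 24.4% and 16.5%. The remaining genes gave 0.09 for Irf7 (SE 0.08), 0.07 for Fv1 (SE 0.07), 0.04 for Bst2 (SE 0.05) and 0.00198 for Apobec3 (SE 0.07). Between means they were at 0.03, 0.12, 0.03 and 0.06.

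On the 1.0ST arrays with their own surrogate variables none of the 9 passed the hindbrain test over both strains by limma (2 at an unadjusted p under 0.05), where 10.1% of all clusters passed as higher and 9.18% as lower. The plain differences between the same pieces of tissue were nevertheless of like size there, at 0.34 for Samhd1 and 0.70 for Ifitm3 (16 of 16 mice each), 0.33 for Trim30a (16 of 16) and 0.46 for Ifit1 (15 of 16). With no surrogate variables, a setting added for these arrays after the data had been seen, 6 of the 9 passed as higher and 1, Bst2 (-0.13), as lower on them, where 34.3% of all clusters passed as higher and 42.8% as lower.

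**Figure D3:**
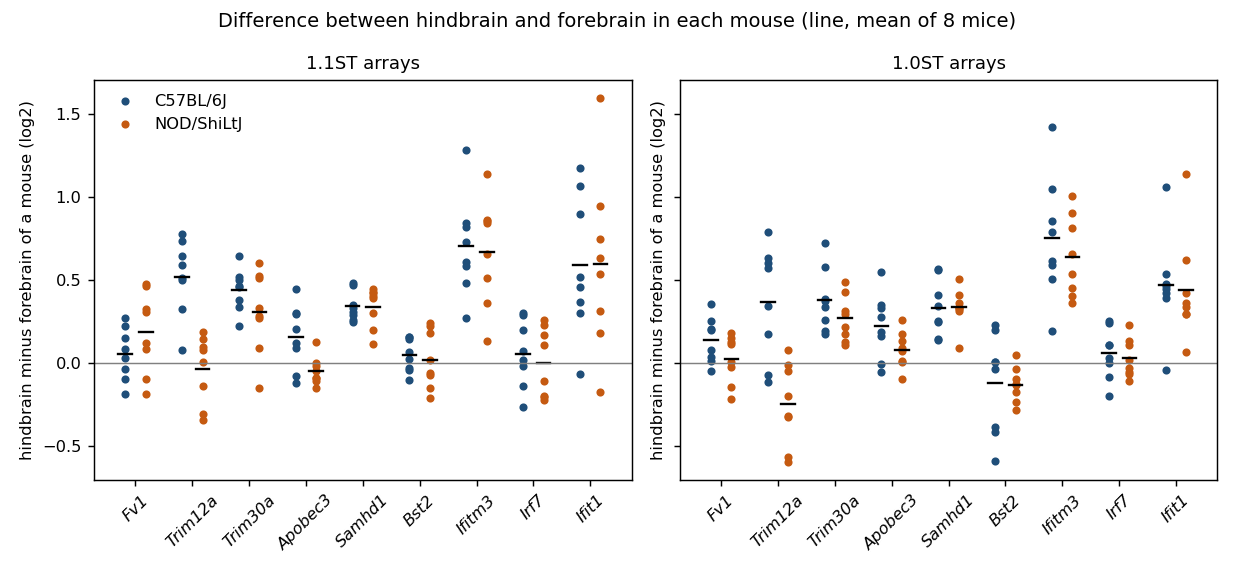
Difference between the hindbrain and forebrain sample of each of 16 mice (log2, vertical axis) for the 9 genes, coloured by strain with lines at the mean of 8 mice, on the 1.1ST arrays (left) and the 1.0ST arrays (right). All points of Samhd1 and Ifitm3 lie above 0 in both formats, and the Trim12a points of C57BL/6J lie above most of those of NOD/ShiLtJ.

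Whole brain was compared with forebrain as the less distinct pair of pieces. Of the 9 genes 1, Samhd1, passed as higher and none as lower (limma), where 8.48% of all clusters passed as higher and 5.89% as lower. Its whole brain value exceeded its forebrain value in 16 of 16 mice, by 0.14 (SD 0.08) between means and 0.11 (SE 0.03, FDR 0.00232 by limma) in the fit. The other fitted differences lay between -0.01 for Irf7 and 0.07 for Ifitm3. Without mouse DD676 the Samhd1 difference was 0.08 with an FDR of 0.138 by limma. Over all clusters 1049 then passed in either direction, against 2400 higher and 1668 lower with all mice. On the 1.0ST arrays the Samhd1 difference was 0.03 with whole brain higher in 10 of 16 mice. There 1.45% of all clusters passed as higher and 0.194% as lower.

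None of the 9 genes passed the test of clozapine against vehicle on the 1.1ST arrays (limma), where 2.92% of all clusters passed, and 2 had an unadjusted p under 0.05. Trim30a had the smallest FDR. Its mouse means were 6.36 (SD 0.08) after vehicle and 6.22 (SD 0.14) after clozapine in C57BL/6J, and 6.08 (SD 0.12) and 5.85 (SD 0.17) in NOD/ShiLtJ (n = 4 mice each), with a fitted difference of -0.13 (SE 0.04, FDR 0.101 by limma). With 1 mean per mouse the value was -0.18 (SE 0.06, FDR 0.168 by limma), and 12 of all clusters were called in place of 828. Clozapine calls in the gene lists and cell markers below are from the fit to all arrays, with no value from mouse means.

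On the 1.0ST arrays Trim30a (-0.11, SE 0.03, FDR 0.0287 by limma) and Fv1 (-0.11, SE 0.03, FDR 0.0438 by limma) passed as lower after clozapine, where 1.78% of all clusters passed as lower and 1.25% as higher. With 1 mean per mouse neither passed there. Trim30a was then at -0.08 (SE 0.03, FDR 0.401 by limma) and Fv1 at -0.10 (SE 0.04, FDR 0.399 by limma). Fv1 was at -0.09 (SE 0.04, FDR 0.278 by limma) on the 1.1ST arrays. Trim30a also passed on the 1.1ST arrays without mouse BB701, BB703, DD657 or DD675 (-0.15 to -0.19), so its side of the threshold turned on single mice. The other clozapine differences lay between -0.14 for Ifit1 (SE 0.09) and 0.06 for Irf7 (SE 0.05).

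The wider interferon programme was read from 65 further interferon-stimulated genes, 53 of which had a cluster of their own. This list and the gene lists below were chosen with earlier results of these data known. Their strain counts are therefore description and not independent support. They come from the fit to all arrays, with no count from mouse means beside them. Averaged over regions, 29 of the 53 were lower in NOD/ShiLtJ and 4 were higher (limma), where 14.9% of all clusters were lower and 19.3% higher. The median difference was -0.11 on the log2 scale, against 0.01 over all clusters. On the 1.0ST arrays 27 were lower and 5 higher, with a median of -0.07, where 15.9% and 21.7% of all clusters did.

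Lowest in NOD/ShiLtJ among them were Pml, which builds nuclear bodies that silence viral DNA (-0.50, SE 0.04), Ifih1, the RNA sensor MDA5 (-0.44, SE 0.04), and Iigp1, a GTPase of interferon defence (-0.42, SE 0.06). Those higher in NOD/ShiLtJ were Trim21, an intracellular antibody receptor (0.74, SE 0.05), Mx2 (0.17, SE 0.04), Eif2ak2, the kinase PKR (0.15, SE 0.04), and Cmpk2 (0.11, SE 0.025). Several hallmark genes of interferon exposure did not pass, among them Isg15, a ubiquitin-like modifier (-5.5e-05, SE 0.04), Rsad2, which encodes viperin (-0.05, SE 0.04), and Mx1 (0.06, SE 0.04). By region, 17 were lower and 4 higher in forebrain (8.76% and 8.98% of all clusters), 9 and 3 in hindbrain (8.69% and 11.8%) and 19 and 1 in whole brain (8.7% and 9.27%). Without BB701 5 were lower in hindbrain, and without BB707 or DD657 2 were higher in whole brain.

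**Figure D4:**
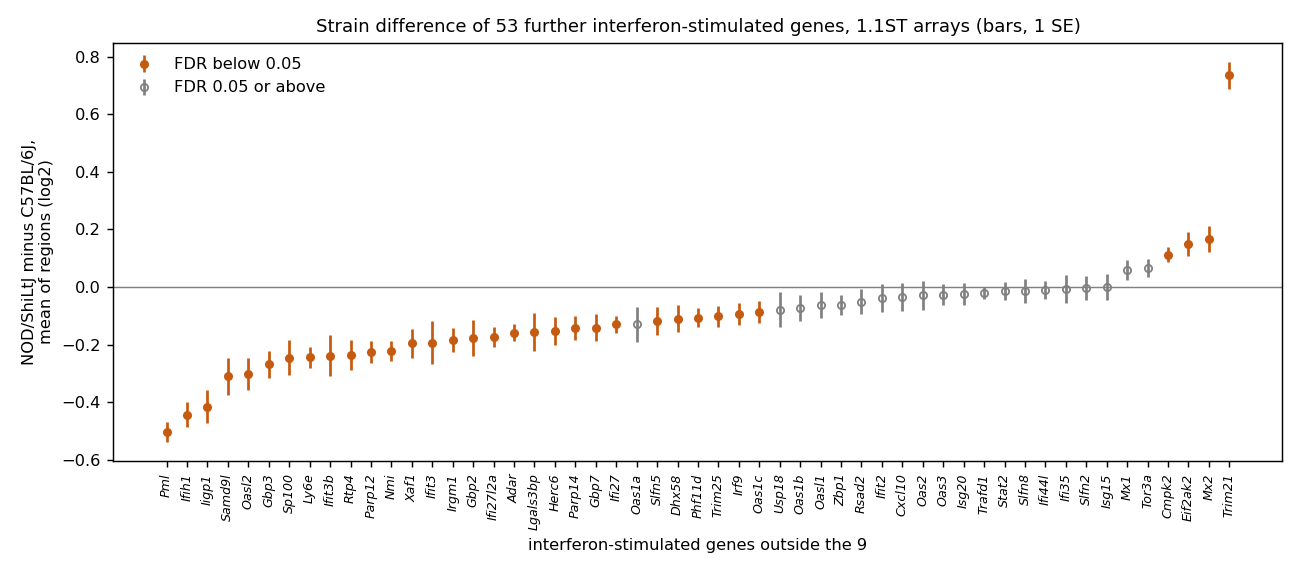
Fitted strain difference averaged over regions (log2, vertical axis, bars of 1 SE) of the 53 measured interferon-stimulated genes outside the 9, ordered by value, with filled points for an FDR below 0.05 on the 1.1ST arrays. The 29 called lower run from Pml at -0.50, and the 4 called higher end at Trim21 at 0.74.

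In hindbrain against forebrain, 22 of the 53 passed as higher and 6 as lower, beside 27.5% and 19.7% of all clusters, with a median of 0.11 against 0.02 over all clusters. Highest were Lgals3bp, a secreted glycoprotein (0.58, SE 0.11), Ifit3, the partner of Ifit1 (0.50, SE 0.12), and Oasl2 (0.49, SE 0.09). Lowest were Herc6, an ISG15 ligase (-0.69, SE 0.08), Pml (-0.39, SE 0.06) and Trafd1, a brake on innate signalling (-0.28, SE 0.03). Without mouse DD676 the count of higher genes was 4 and that of lower genes 3. Over all clusters 7811 then passed in either direction, against 7778 higher and 5576 lower with all mice. On the 1.0ST arrays 5 were higher and 4 lower, beside 10.1% and 9.18% of all clusters. After clozapine 4 were lower, Sp100 (-0.25, SE 0.06), Parp14 (-0.21, SE 0.04), Slfn5 (-0.21, SE 0.05) and Gbp7 (-0.17, SE 0.05), and none higher, where 1.89% of all clusters were lower and 1.04% higher. The count lower was 2 without BB685, BB687, DD656 or DD676 and 7 without BB703, and 1 passed as higher without BB685, BB702, DD675 or DD676.

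Relatives of the 9 genes were listed apart from them, and 27 of 31 were measured. In the mean of regions 10 were lower and 4 higher in NOD/ShiLtJ, beside 14.9% and 19.3% of all clusters. Trim12c (-0.34, SE 0.04), Trim34a (-0.25, SE 0.04) and Ifit3b (-0.24, SE 0.07) were lowest, and Trim21, also in the list above, was the highest, followed by Irf8, a regulator of myeloid cells (0.12, SE 0.04), and Ifitm10 (0.09, SE 0.03). A dimmer cluster with the symbol Trim12c alone differed less, with -0.08 (SE 0.10), -0.16 and -0.12 in forebrain, hindbrain and whole brain. On the 1.0ST arrays that cluster was at -0.03 (SE 0.08), 0.09 and -0.22. In hindbrain 14 were higher than in forebrain and 3 lower (27.5% and 19.7% of all clusters), led by Ifitm1 (0.63, SE 0.08) and Ifitm10 (0.59, SE 0.05) and, on the lower side, Irf2 (-0.27, SE 0.05), Irf8 (-0.23, SE 0.07) and Ifitm6 (-0.10, SE 0.05). Without mouse DD676 2 were higher and 1 lower, where calls over all clusters fell to 7811 in either direction. On the 1.0ST arrays 5 were higher and 1 lower, beside 10.1% and 9.18% of all clusters.

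Genes of interferon signalling showed smaller differences. Of 25 measured, 6 were lower and 4 higher in NOD/ShiLtJ in the mean of regions (14.9% and 19.3% of all clusters), with a median of -0.00508 on the log2 scale. The receptor-bound kinase Tyk2 (-0.14, SE 0.03) was lowest, followed by Irf1 (-0.11, SE 0.04) and Irf9, the DNA-binding subunit of ISGF3 (-0.09, SE 0.04), and the interferon gamma receptor chain Ifngr2 (0.17, SE 0.02) highest. The count higher was 1 without mouse DD656 and 2 without DD675. The interferon genes themselves had mean log2 levels of 4.05 for Ifnb1 and 4.33 for Ifng, and neither passed the hindbrain test. After clozapine 4 signalling genes were lower (1.89% of all clusters), among them the shared receptor chain Il10rb (-0.23, SE 0.05) and the type I interferon receptor Ifnar1 (-0.08, SE 0.02). That count was 1 without BB685, BB687, DD656, DD658, DD659, DD676 or DD677 and 8 without DD675.

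Of 24 measured sensors of nucleic acid and their adaptors, 9 were lower and 4 higher in NOD/ShiLtJ, beside 14.9% and 19.3% of all clusters. Aim2, a sensor of cytosolic DNA (-0.52, SE 0.04), Ifih1, named above, and Rnaseh2c, a subunit of the enzyme that removes RNA from DNA (-0.30, SE 0.03), were lowest. Ifi203, a relative of Aim2 (0.41, SE 0.06), Sting1, the adaptor of cytosolic DNA sensing (0.23, SE 0.06), and Tlr3, a receptor of double-stranded RNA (0.12, SE 0.03), were highest. One sensor passed in the clozapine test, where 1.04% of all clusters passed as higher and 1.89% as lower. This was Tlr7, a receptor of single-stranded RNA, higher by 0.43 (SE 0.07, FDR 0.00051 by limma) and, in the 1.0ST format, by 0.32. With 1 mean per mouse 12 of all clusters were called in place of 828, and no such value is given for Tlr7.

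Genes of retroviral entry, capsid use and silencing gave 10 lower and 8 higher of 31 measured in the mean of regions (14.9% and 19.3% of all clusters), with a median of -0.000915 on the log2 scale. The deacetylase Hdac1 (-0.74, SE 0.03), the chromatin assembly factor Chaf1a (-0.20, SE 0.04) and the histone methyltransferase Setdb1 (-0.19, SE 0.02), which silences endogenous retroviruses, were lowest in NOD/ShiLtJ. Hells, a remodeller needed for DNA methylation (0.40, SE 0.05), was highest, before Mx2, given above, and Chaf1b (0.10, SE 0.05). The receptor of ecotropic murine leukaemia virus, Slc7a1, was higher in NOD/ShiLtJ (0.07, SE 0.02). Without BB686 or DD677 the count higher was 5.

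Marker genes of cell types were read from the same samples. Markers of vessels and meninges were higher in hindbrain together with the 4 genes above. Beside 27.5% of all clusters higher and 19.7% lower, 12 of 13 measured endothelial markers passed as higher (median 0.26), as did 6 of 8 mural (0.46), 6 of 8 meningeal fibroblast (0.37) and 4 of 7 border macrophage markers (0.16). All 5 measured oligodendrocyte markers passed as higher (0.69), while 11 of 17 microglial markers passed as lower and 1 as higher (median -0.15). All 6 choroid plexus markers passed as lower (-1.04), 5 of 7 astrocyte markers as higher and 2 as lower, 3 of 6 erythroid and granulocytic markers as higher, and lymphocyte and neuronal markers in both directions (3 and 2 of 11, 2 and 2 of 6). In the 1.0ST format, where 10.1% of all clusters passed as higher, the counts were 3 of 13 endothelial, 3 of 8 mural, 1 of 8 meningeal fibroblast, 0 of 7 border macrophage and 5 of 5 oligodendrocyte markers. There 4 of 17 microglial markers passed as lower. The part of these cells in the hindbrain values was not tested.

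The same lists were read between strains in the mean of regions, where 19.3% of all clusters were higher in NOD/ShiLtJ and 14.9% lower. Of 13 endothelial markers 6 were lower and 1 higher, of 17 microglial markers 9 were higher and 4 lower, and of 11 lymphocyte markers 1 was lower and none higher. Meningeal fibroblast (5 of 8), border macrophage (3 of 7) and oligodendrocyte markers (3 of 5) passed as higher and none of them as lower. Mural (3 higher and 1 lower of 8), astrocyte (4 and 3 of 7) and neuronal markers (2 and 1 of 6) went both ways, 2 of 6 choroid plexus markers were lower, and 1 of 6 erythroid and granulocytic markers was higher. The summed level of the endothelial list, as the mean log2 value of its 13 genes, ranged from 8.17 to 8.41 in C57BL/6J forebrain and from 7.74 to 8.22 in NOD/ShiLtJ forebrain, and that of the microglial list from 7.68 to 7.91 and from 7.54 to 7.82. The unadjusted microglial level thus ran against its fitted count. Its mean was lower in NOD/ShiLtJ in forebrain (7.706 against 7.78), hindbrain (7.535 against 7.665) and whole brain (7.679 against 7.743). The lymphocyte list lay between 4.18 and 4.49 in all groups. After clozapine 6 endothelial markers passed as lower and 1 as higher (1.89% and 1.04% of all clusters). Trim30a (-0.13, FDR 0.101) and Ifitm3 (-0.11, FDR 0.275) were below 0 without passing that test (limma). The part of the markers in those values was not tested.

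Within groups, the 9 genes did not vary as one. After subtracting group means (6 combinations of strain and region), the highest of the 36 pairwise correlations over 48 samples were those of Ifitm3 with Ifit1 (Pearson r 0.49), Trim12a with Apobec3 (0.46), Trim30a with Ifitm3 (0.44) and Trim30a with Ifit1 (0.44). On the 1.0ST arrays the same pairs stood at 0.32, 0.33, 0.46 and 0.37. The within-group values of a single gene correlated between formats at only 0.09 for Trim12a and 0.28 for Apobec3. For Trim30a, Ifit1 and Ifitm3 this was 0.42, 0.79 and 0.84. Fv1 was near 0 with all others on the 1.1ST arrays, from -0.17 with Irf7 to 0.12 with Samhd1. On the 1.0ST arrays it ran from -0.44 with Irf7 to 0.41 with Trim30a. These samples share mice, arrays and RNA, so the values describe likeness and carry no test.

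**Figure D5:**
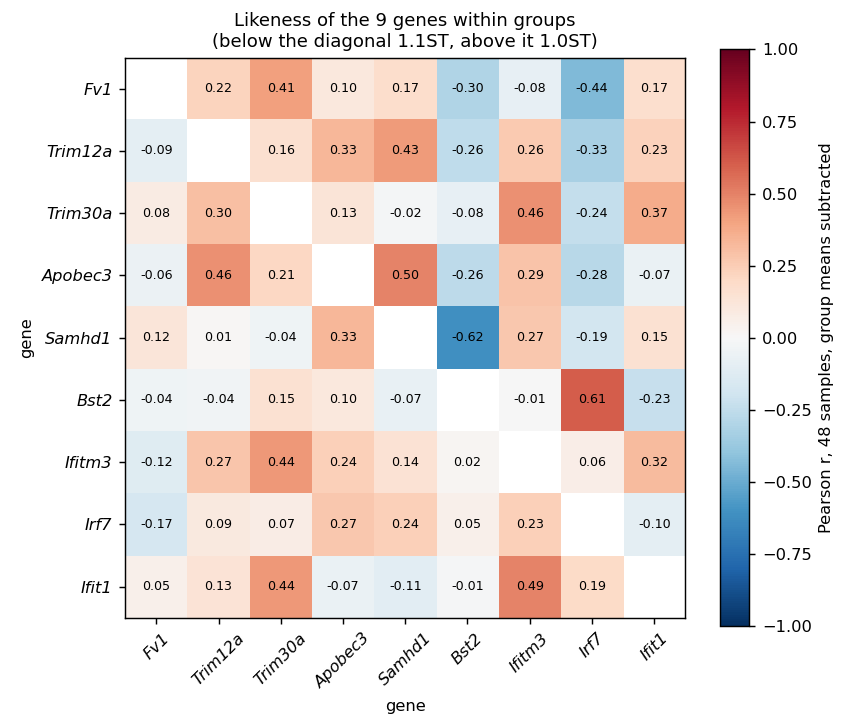
Pearson r between the 9 genes over 48 samples after group means were subtracted, with 1.1ST arrays below the diagonal and 1.0ST arrays above it. The pairs among Ifitm3, Trim30a and Ifit1, and Trim12a with Apobec3, lie between 0.32 and 0.49 in both formats, while Bst2 with Irf7 is at 0.05 in one and 0.61 in the other. Within groups the Trim12a values of the formats correlate at only 0.09.

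Against the marker lists, Ifitm3 ran with mural (r 0.69), endothelial (0.68) and meningeal fibroblast markers (0.68), and on the 1.0ST arrays at 0.72, 0.61 and 0.62. Trim30a ran most with microglial markers (0.58, and 0.52 in the 1.0ST format), although those markers were lower and Trim30a higher in hindbrain. Bst2 correlated at 0.86 with the lymphocyte list on the 1.0ST arrays and at -0.01 on the 1.1ST arrays.

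Among 18809 other genes, those most like Ifitm3 within groups were Frmd4b (r 0.82), Serping1, the complement C1 inhibitor (0.80), and Gjb2, the gap junction protein connexin 26 of the meninges (0.80). Ifit1 was most like Zfp141 (0.71), Ifit3 (0.70 and, on the 1.0ST arrays, 0.73) and Serpind1 (0.66). Trim30a was followed by Il10rb (0.75), Klhl6 (0.72) and the caveolin gene Cav1 (0.71), and Samhd1 by Tns1 (0.80), Enah (0.79) and Phactr4 (0.78). The closest to Fv1 were Hdx (0.76), Edrf1 (0.73) and Zbtb10 (0.70), none of which differed between strains in forebrain by more than 0.03 log2 units.

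The remaining genes had looser company. Trim12a was followed by Slc25a21 (0.55), Gatc (0.49) and Anp32b (0.48), Apobec3 by Nelfa (0.62), Fam222a (0.62) and Cry2 (0.62), Bst2 by Snord55 (0.62), Wnt6 (0.605) and Snn (0.59), and Irf7 by Olfr1089 (0.56), Dolpp1 (0.56) and Tmem89 (0.56). Several of these fell away on the 1.0ST arrays, such as Slc25a21 with Trim12a (0.02), Snn with Bst2 (-0.15) and Dolpp1 with Irf7 (0.06).

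The genes that start within 250 kb of each of the 9 were examined for their own strain difference in forebrain, where 17.7% of all clusters passed. Around Fv1, 4 of 11 passed as higher in NOD/ShiLtJ, Rps19-ps3 (0.65), Clcn6 (0.35), Agtrap (0.20) and Plod1 (0.14), and 2 as lower, Miip (-0.69) and Mfn2 (-0.27). The nearest to Fv1 were the lower Miip (-8.2 kb) and Mfn2 (4.61 kb), and the nearest called higher was Plod1 (40.8 kb). A shared local cause was not tested. Around Apobec3, 4 of 12 passed, all lower, with Cbx7 at -0.77, Dnal4 at -0.36, Cby1 at -0.24 and Rpl3 at -0.19.

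Trim12a and Trim30a lie in one cluster of TRIM genes and share neighbours. Of the genes near them that are outside the 9, Trim12c (-0.38, SE 0.07) and Trim34a (-0.30, SE 0.06) passed as lower in NOD/ShiLtJ, and 1 neighbour of Trim30a, the odorant receptor gene Olfr657, as higher (0.14). The dimmer Trim12c cluster given above was at -0.08 (SE 0.10). Near Ifit1, Ifit3b (-0.30) and Pank1 (-0.13) passed as lower among 9 genes. Samhd1 had 1 of 7 that passed, Dsn1 (0.28), Bst2 had 2 of 21, Gtpbp3 (0.17) and Ocel1 (0.15), Ifitm3 had 1 of 27, Zfp941 (0.15), and Irf7 had 1 of 29, Cend1 (0.11), all higher. TRIM genes of this cluster are close in sequence, so probes may share signal between Trim12a and Trim12c, and the values of each are uncertain to that extent.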

How the data were processed

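Total RNA of forebrain, hindbrain and whole brain of 16 mice was profiled on both Affymetrix formats (48 samples, 96 arrays). The authors made the deposited log2 intensities by robust multiarray average with sketch-quantile normalization in Affymetrix Expression Console 1.1 and dropped control transcripts and further transcripts without mRNA annotation, leaving 28310 clusters. The genome build is not given in the sources used here. Samples were grouped by their labels, which give neither array batch nor hemisphere, so neither was used.

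The 1.1ST values were fitted with limma 3.58.1 (statmod 1.5.0, R 4.3.3). Terms were 6 means of strain and region, treatment and 5 surrogate variables, with mouse taken as a random block (consensus correlation 0.0310). Each surrogate variable was the first principal component of the 1000 clusters most correlated with a residual component, following the methods but without the batch. Tests are two-sided, and false discovery rates use the published methods' own formula. Residuals of 2 regions of the same mouse correlated at 0.121 (forebrain and hindbrain), 0.0825 (forebrain and whole brain) and 0.0402 (hindbrain and whole brain) on average, as the replicate names are those of mice. Strain and clozapine differ between mice, so precision for both is limited by the 16 mice and not by the arrays. At so low a consensus correlation the fit gives the 3 regions of a mouse almost the weight of separate animals. The SEs and calls of strain and clozapine may therefore be too favourable. With 1 mean per mouse 7429 clusters were called for the mean strain difference, against 5477 higher and 4210 lower in the main fit.

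The 9 genes and all lists were chosen with earlier results of these data known. Symbols came from GEO's platform annotation (21207 clusters with 1 symbol, 1867 with several, 5236 with none), and the cluster with the highest mean stood for a gene with several. For Apobec3 the cluster named in both tables was used. Probe sequences were not used here, so a strain difference is a difference in probe signal. Named genes are all 9, up to 3 called genes in each direction from a list and comparison, the 3 genes of highest within-group r for each of the 9, and called neighbours. Isg15, Rsad2, Mx1, Ifnb1, Ifng, Cmpk2, Gbp7, Ifnar1 and Slc7a1 were added after their values were seen. Fits were tested on simulated data. Alternatives were the 1.0ST arrays, no surrogate variables, the mouse left unblocked or as fixed effect, Benjamini-Hochberg adjustment, a mean above 5, clusters with 1 symbol, centred arrays, hour of kill, litter size, 1 mean per mouse, each strain or treatment alone, each mouse left out and 1 sample left out.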

Additional observations from a re-analysis of the deposited data

Results flagged for a closer look

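In 4 of 108 groups of 4 samples with 1 strain, region and treatment, a sample stood apart from the other 3 by Dixon's criterion, where chance gives about 5%. Trim30a was 6.01 in the whole brain of the vehicle-treated C57BL/6J mouse BB686, below the 6.24 to 6.27 of the others. Samhd1 was 8.03 in the forebrain of the vehicle-treated NOD/ShiLtJ mouse DD656, above 7.85 to 7.88. Bst2 was 5.92 in the hindbrain of the clozapine-treated C57BL/6J mouse BB703, below 6.09 to 6.11, and 6.13 in the whole brain of the vehicle-treated NOD/ShiLtJ mouse DD657, above 6.00 to 6.01.

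Of 18 fitted differences between the strains in a region effect, that of Trim12a in hindbrain against forebrain stood out at -0.50 (SE 0.12), as described above. It carries no p, since the strain differences it is made of were used to choose the gene, and the dim NOD/ShiLtJ signal of Trim12a stands beside it.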

How the results depend on the processing

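On the 1.0ST arrays the mean strain difference was 0.97 for Fv1, -1.51 for Trim12a and -0.0761 for Irf7, and -0.13 for the other Apobec3 cluster. In the clozapine mice alone it was -0.0687 for Bst2, and 2 interferon-stimulated genes were called higher and 16 lower.

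For hindbrain against forebrain, 7778 of 28310 clusters were called higher and 5576 lower, against 5469 in all on the 1.0ST arrays. The number called was 8356 of 19458 with a mean above 5 and 8256 of 21207 with 1 symbol. It was 18590 with no surrogate variables and 21829 on the 1.0ST arrays with none, the setting added after the data were seen. On the 1.0ST arrays Trim30a was at 0.17, Samhd1 at 0.13, Ifitm3 at 0.23 and Ifit1 at 0.12 and 0 of the 9 genes passed. With a mean above 5 it was 1, with Trim30a at 0.16, Ifitm3 at 0.21 and Ifit1 at 0.15, and with 1 symbol 2, with Trim30a at 0.15 and Ifit1 at 0.22. The count of interferon-stimulated genes called higher was 5, 2 and 8 under these 3 settings and 35 in the added one, and that called lower was 3 with 1 symbol, 3 in C57BL/6J alone and 13 in the added one. Fv1 passed with no surrogate variables (0.12), with a fixed block (0.12) and in the added setting (0.0817). Trim12a passed with no surrogate variables (0.24), with a fixed block (0.24), with centred arrays (0.20) and in C57BL/6J alone (0.45). In the added setting Apobec3 passed at 0.15, Bst2 turned to -0.13 and passed as lower, the 1 gene called so, and Trim30a turned to 0.11 in whole brain against forebrain. The causes were not tested.

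The count of 1 gene higher in whole brain was 0 on the 1.0ST arrays, with a mean above 5, with 1 symbol and in NOD/ShiLtJ alone. The count lower after clozapine was 2 on the 1.0ST arrays and 1 with no surrogate variables. Calls of clozapine over all clusters were 828, against 632 with no surrogate variables, 295 with the hour of kill and 12 with 1 mean per mouse.

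Leaving out each mouse gave 0.10 to 0.21 for Trim12a and 0.15 to 0.50 for Ifit1 in hindbrain against forebrain, 0 to 1 gene higher in whole brain, 0 to 1 lower after clozapine, and 4 to 26 interferon-stimulated genes higher and 3 to 7 lower in hindbrain. Trim12a passed without BB685, BB686, BB701, DD656, DD677 or DD678. Without DD676 Ifit1 was at 0.15, no gene passed in whole brain, and the interferon-stimulated genes numbered 4 and 3, the 3 also without DD677. Over all clusters 7811 passed in hindbrain and 1049 in whole brain without DD676. Without the replicate block the counts in hindbrain remained at 4 of the 9 genes and 22 interferon-stimulated genes, and no call of the 9 genes changed.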
